A study of Macaca mulatta with 6 samples.

Results

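The phagocyte NADPH oxidase is described here by the genes CYBB, CYBA, NCF1, NCF4 and RAC2, in RNA from single macaque blood-forming colonies with and without a TET2 mutation. These 5 genes were chosen by name among the 32386 rows of the count table, and for each the row with the highest total was used. All 5 were found, and all 5 passed the filter on low counts. They were followed in 3 wild type colonies (WT) and 3 colonies named TET2 uniallelic (UA) with the genotype TET2+/-, the latter carrying predicted loss-of-function mutations. Every colony was a granulocyte-macrophage colony grown for 14 days from 1 CD34+ cell of rhesus macaque marrow. The marrow was sampled 15 months after the animals had received back their own CD34+ cells treated with CRISPR/Cas9, so the WT colonies also came from treated and transplanted cells. Colonies were picked singly and split, the DNA of 1 part giving the genotype and the RNA of the other the library. The number of animals is not stated, so p-values measure only how these libraries vary, part of which may be technical.

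The oxidase makes superoxide in phagosomes and at the cell surface of neutrophils, monocytes, macrophages and eosinophils. Its membrane core is a flavocytochrome of CYBB, the catalytic subunit, and CYBA, its partner, which is matured with the help of the chaperone CYBC1. The cytosolic subunits, among them NCF1, the organizer, and NCF4, which binds the lipid PI3P on phagosomes, join the core on activation together with a Rac GTPase. RAC2 is the Rac of blood cells, while RAC1 is made in most cells. Inherited loss of CYBB, CYBA, NCF1, NCF4 or CYBC1 causes chronic granulomatous disease, in which phagocytes engulf microbes and kill them poorly.

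Totals were 10574104 to 25485143 counts in the WT libraries and 6334264 to 17684447 in the UA libraries. TET2 had 79.3, 92.8 and 109 CPM in WT replicates 1 to 3 and 238, 225 and 229 CPM in UA replicates 1 to 3, where CPM are counts per 1000000 counts, with library totals multiplied by their TMM scaling factors. This higher TET2 level in the mutant-labelled libraries does not check the labels, because no allele was read at the edited site, and libraries are therefore named by their labels. WT replicate 1 stood apart from the other WT libraries. Over genes with at least 20 counts in a pair, the mean chi-square per gene was 82.4 and 79.0 for WT replicate 1 against replicates 2 and 3, and 12.1 between the latter. It was 4.29 to 5.21 between UA libraries, above sampling noise and below the 12.1 to 82.4 of the WT pairs. This does not show whether the UA libraries are separate colonies, and they were counted as 3 samples by their labels. Both groups held transcripts of granulocytes and monocytes, such as MPO at 810.4 ± 114 CPM in WT and 16743 ± 147 in UA (SD, n = 3 each).

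The transcripts of the oxidase did not change together between the colonies. Those of the membrane core were higher in UA, with CYBB 4.72-fold and CYBA 1.94-fold the WT mean, while NCF4 was 7.73-fold lower. NCF1 and RAC2 differed less and were not called. Of the 5 genes, 2 were called higher and 1 lower at an edgeR adjusted p under 0.05. Of all 13768 genes tested, 34.6% were called higher and 31.4% lower, 66% together, so 3 called of 5 is near the background. The 3 UA libraries all lay above the 3 WT libraries for CYBB, CYBA and NCF1, and all below them for NCF4 and RAC2. Such separation was seen for 73.2% of all genes tested, 39.2% with UA higher and 34% with UA lower. When the UA libraries were added up into 1 sample, leaving the spread to WT, 2950 genes were called higher and 2410 lower in place of 4770 and 4321, and CYBB, CYBA and NCF4 were still called. In RNA of whole colonies, a lower share of cells that make a transcript and less of it per cell cannot be told apart.

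**Figure D1:**
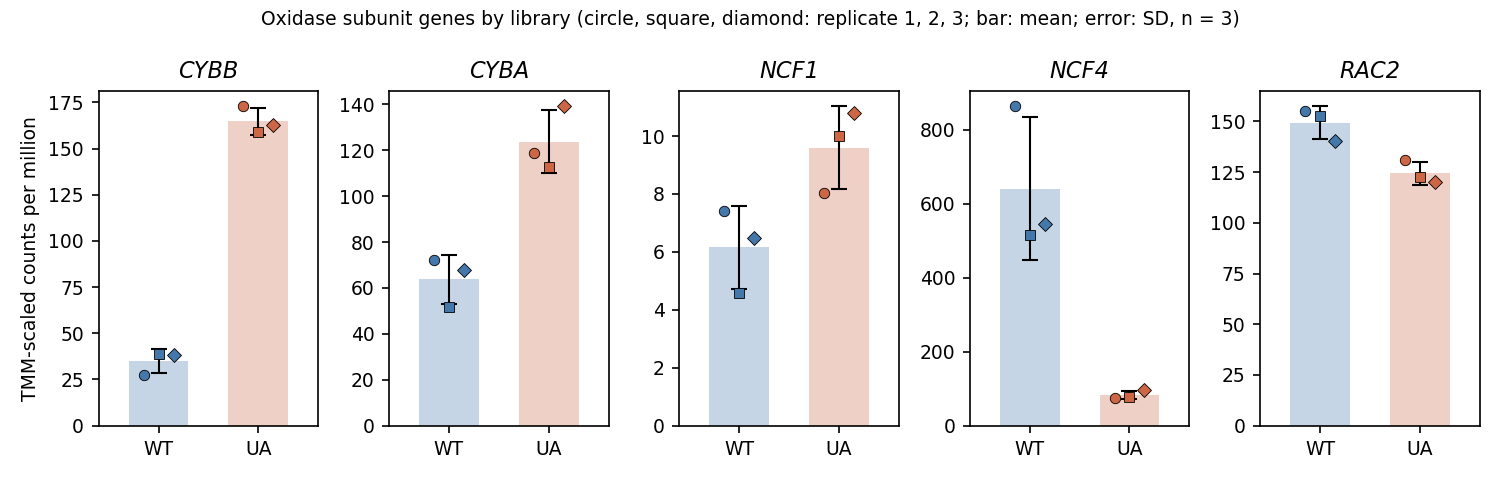
TMM-scaled level (CPM) of the 5 oxidase genes in each library, with the mean and SD of 3 WT and 3 UA colonies. CYBB and CYBA stand higher in UA, NCF4 stands much lower, and the group ranges do not overlap in any panel.

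CYBB, the heme- and flavin-carrying subunit that passes electrons from NADPH to oxygen, had 27.4, 39.0 and 38.4 CPM in WT replicates 1 to 3 and 173, 159 and 163 CPM in UA replicates 1 to 3. The UA libraries were close to each other, and WT replicate 1 was the lowest of all. The group means were 34.9 ± 6.55 CPM in WT and 165 ± 7.22 in UA (SD, n = 3 each). CYBB thus rose in UA, by a log2 fold change of 2.24 (SE 0.18, 95% interval 1.84 to 2.65, edgeR adjusted p = 2.72e-06). Of all genes tested, 12.8% had a higher log2 fold change. No location of CYBB or NCF1 is given here, since no coordinates of the build of these files were used for them.

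CYBA, the small membrane subunit that stabilizes CYBB and docks the organizer, had 72.0, 51.6 and 67.7 CPM in WT replicates 1 to 3 and 119, 113 and 139 CPM in UA replicates 1 to 3. The highest WT library lay well below the lowest UA library. The mean rose from 63.8 ± 10.7 CPM in WT to 124 ± 13.7 in UA (SD, n = 3 each), or 0.95 on the log2 scale (SE 0.18, 95% interval 0.56 to 1.35, edgeR adjusted p = 0.00074). In the fit with the UA libraries summed it had 0.94 and was close to the threshold (edgeR adjusted p = 0.0408). The authors' deposited table places CYBA on chromosome 20, start 73462705 and end 73470530. It names no build; Mmul_8.0.1 is the one named in the submitters' processing notes. CYBC1, the chaperone of this pair, had 19.5 ± 1.42 CPM in WT and 24.5 ± 1.54 in UA (SD, n = 3 each). Its log2 fold change was 0.33 with a 95% interval of -0.11 to 0.76 (edgeR adjusted p = 0.166), and it was called only with library size alone among the settings tried (0.49, edgeR adjusted p = 0.0467).

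NCF1, the organizer that carries the other cytosolic subunits to the membrane once phosphorylated, was the gene with the fewest reads among the 5. WT replicates 1 to 3 held 162, 48 and 77 counts, and UA replicates 1 to 3 held 148, 104 and 73. Scaled, these were 7.40, 4.59 and 6.48 CPM in WT and 8.02, 10 and 10.8 CPM in UA, so that the groups were narrowly apart. The log2 fold change was 0.62 (SE 0.30), with a 95% interval of -0.04 to 1.29, and was not called (edgeR adjusted p = 0.0887). It was called with library size alone (0.80, edgeR adjusted p = 0.0327) and without WT replicate 1 (0.79, edgeR adjusted p = 0.0419). A near-identical pseudogene copy of NCF1 is known in the human genome, and whether copies in the macaque share its reads was not tested, so its level is uncertain.

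NCF4, another cytosolic subunit, went the opposite way from the membrane core. It had 863, 516 and 544 CPM in WT replicates 1 to 3 and 75.7, 77.8 and 95.4 CPM in UA replicates 1 to 3. The highest UA library thus lay far below the lowest WT library, and WT replicate 1 was the highest of all. The mean fell from 641 ± 193 CPM in WT to 82.9 ± 10.8 in UA (SD, n = 3 each), or by -2.95 on the log2 scale (SE 0.22, 95% interval -3.44 to -2.46, edgeR adjusted p = 1.70e-06). Of all genes tested, 1.58% had a lower log2 fold change. The authors' deposited table places NCF4 on chromosome 10, start 78764594 and end 78783440.

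RAC2, the hematopoietic Rac, was covered by 2 rows of the count table. The row with the symbol, ENSMMUG00000048761, held 7 counts in all, 6 of them in WT replicate 3. A second row with no symbol, ENSMMUG00000018854, held 11159 counts and is described in the authors' deposited table by a RefSeq protein that RefSeq assigns to RAC2. In that table the rows lie on chromosome 10 from 79205778 to 79222805 and from 79203220 to 79222973, so the first lies inside the second. The second row was used as RAC2, a choice made after its counts were seen, and the sources used here do not give how reads in the shared span were assigned.

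RAC2 in that row had 155, 153 and 140 CPM in WT replicates 1 to 3 and 131, 123 and 120 CPM in UA replicates 1 to 3. The libraries of each group were close, and the UA values were all somewhat lower. The log2 fold change was -0.26 (SE 0.14), with a 95% interval of -0.57 to 0.05, and was not called (edgeR adjusted p = 0.121). It was called without WT replicate 1 (-0.23, edgeR adjusted p = 0.0390). RAC2 and NCF4 lie on the same chromosome, and the difference between their changes is given by their ratio, described further on. RAC1, the widely made Rac, had 391, 298 and 292 CPM in WT replicates 1 to 3 and 132, 122 and 131 CPM in UA replicates 1 to 3. RAC1 fell, with -1.35 on the log2 scale (SE 0.16, edgeR adjusted p = 3.18e-05). The 2 Rac genes are close relatives, and reads that could fit both were not examined.

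**Figure D2:**
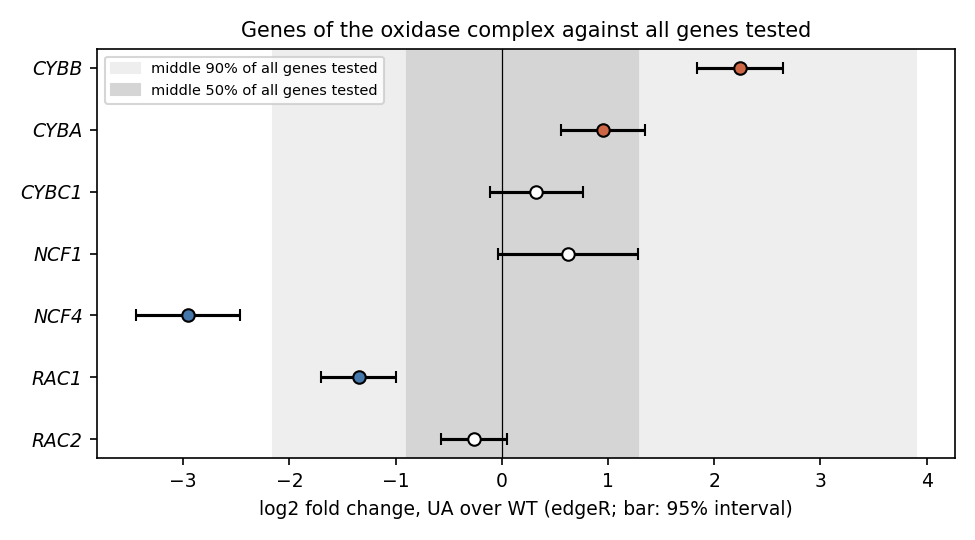
Log2 fold change of UA over WT for 7 genes of the complex and its chaperone, with 95% intervals from edgeR; grey bands hold the middle 50% and 90% of the genes tested, and filled points were called. NCF4 at -2.95 lies outside the wider band, CYBB at 2.24 lies outside the narrower band on the other side, and NCF1, CYBC1 and RAC2 have intervals that include 0.

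Of 7 genes of the complex and its chaperone, counting CYBC1 and RAC1, 2 were called higher, 2 lower and 3 were not called. Their median log2 fold change was 0.33, beside 0.12 over all genes tested. The called share of these genes is near the 66% of all genes tested, so the counts are a description of these genes. Without WT replicate 1 the log2 fold change was 2.10 for CYBB, 1.05 for CYBA and -2.68 for NCF4, each called by edgeR (adjusted p = 8.01e-12, 1.49e-06 and 8.89e-14).

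The balance between subunits was compared within each library, where library scaling cancels. A ratio of raw counts of 2 genes is not per length, so only its difference between groups is read. The count of CYBB over that of CYBA had a log2 of -1.40, -0.40 and -0.82 in the WT libraries and of 0.54, 0.49 and 0.23 in the UA libraries, each in replicate order. All UA libraries thus held more CYBB per CYBA than all WT libraries, a difference of 1.29 on the log2 scale, or 2.45-fold. The largest of the 10 differences was that of CYBB over NCF4, at -4.98, -3.72 and -3.83 in WT and 1.19, 1.03 and 0.77 in UA. It came to 5.17 on the log2 scale, or 36.1-fold.

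Ratios of NCF4 to the other 4 genes gave the largest differences between the group means. CYBA over NCF4 differed by 3.88, NCF1 over NCF4 by 3.58 and NCF4 over RAC2 by -2.66 on the log2 scale, UA minus WT. The last, that of the pair on chromosome 10, is a 6.30-fold lower ratio in UA. Against RAC2, CYBB differed by 2.52, CYBA by 1.23 and NCF1 by 0.92. The smallest difference was that of CYBA over NCF1, with 3.28, 3.49 and 3.38 in WT and 3.89, 3.50 and 3.69 in UA, where the groups nearly touched. In each of the 10 pairs the groups did not overlap. The pairs share genes and are not independent, and taken singly 73.2% of all genes tested also separated the groups. How often ratios of other gene pairs do so was not tested. Nothing particular to the oxidase is therefore read from the separation of the 10 pairs. The exact two-sided permutation test gave p = 0.1 for each pair, the smallest that 3 against 3 libraries allow, and 0.1 after Benjamini-Hochberg adjustment over the 10 pairs, so no pair could pass.

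**Figure D3:**
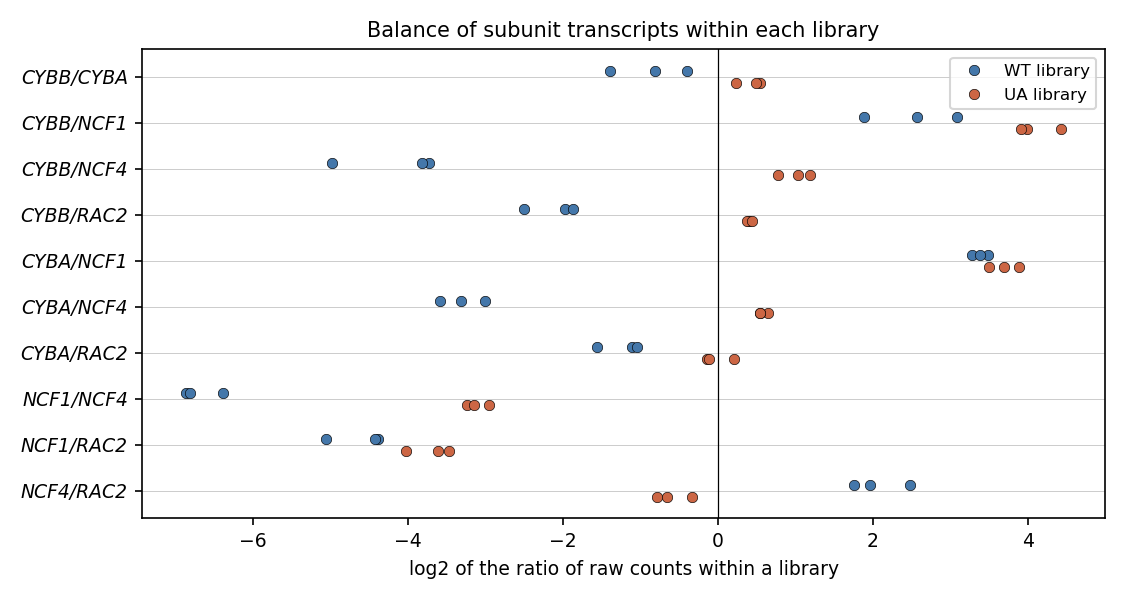
Log2 of the ratio of raw counts of 2 oxidase genes within each library, 1 row per pair, with 3 WT and 3 UA libraries. Ratios with NCF4 differ most between the group means. Those of CYBB over NCF4 span -4.98 to -3.72 in WT and 0.77 to 1.19 in UA, while those of CYBA over NCF1 nearly touch.

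Other NADPH oxidases were mostly too low to test in these colonies. Of 10 listed genes of the NOX and DUOX enzymes and their partners, 8 were too low to test and none was called among the other 2. NOXA1, which serves NOX1, had 16.9 ± 0.798 CPM in WT and 16.2 ± 0.955 in UA (SD, n = 3 each), -0.06 on the log2 scale (edgeR adjusted p = 0.804). NOX5, a calcium-gated oxidase, had 0.361 ± 0.486 CPM in WT and 1.64 ± 0.303 in UA (edgeR adjusted p = 0.0734). CYBB and NOX5 were the catalytic subunits of the family that passed the filter.

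Regulators of Rac differed in both directions. Of 11 tested, 5 rose, 2 fell and 4 were not called, beside 34.6% higher and 31.4% lower over all genes tested. This called share is near that of all genes, and nothing particular to this or the following lists is read from their counts. The list had a median log2 fold change of 1.08, beside 0.12 over all genes tested. PREX1, an exchange factor that loads Rac with GTP downstream of chemoattractant receptors, rose from 26.1 ± 0.760 CPM in WT to 183 ± 6.32 in UA (SD, n = 3 each), with a log2 difference of 2.81 (edgeR adjusted p = 1.93e-07). On the log2 scale DOCK2, the leukocyte Rac activator, rose by 2.19 and ARHGEF6, an exchange factor of Rac and CDC42, by 2.66. TIAM1, another Rac exchange factor, fell by 1.94 on the log2 scale. ARHGDIA, which holds Rac inactive in the cytosol, fell from 321 ± 35.7 CPM in WT to 161 ± 7.44 in UA (SD, n = 3 each).

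Kinases, lipid kinases and related signalling genes of oxidase assembly also differed in both directions. Of 14 tested, 8 rose, 2 fell and 4 were not called, beside 34.6% higher and 31.4% lower over all genes tested. The median of the list was 0.54 on the log2 scale. On the log2 scale PAK2, a kinase driven by Rac, rose by 1.19 and PIK3CD, a leukocyte PI 3-kinase, by 1.32. PIK3C3, the enzyme that makes the PI3P to which NCF4 binds, rose from 24.3 ± 4.41 to 39.7 ± 1.31 CPM (SD, n = 3 each; log2 fold change 0.71, edgeR adjusted p = 0.00845), opposite in sign to NCF4. AKT1 and BTK fell by log2 fold changes of -1.17 and -1.29.

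Phagocyte receptors that act on the oxidase differed in both directions. Of 15 tested, 8 fell, 4 rose and 3 were not called, beside 34.6% higher and 31.4% lower over all genes tested. The median of the list was -0.61 on the log2 scale. FPR2, a receptor for formylated peptides, fell from 32.7 ± 1.32 to 2.49 ± 0.923 CPM (SD, n = 3 each; log2 fold change -3.69, edgeR adjusted p = 2.09e-06). IFNGR2, a chain of the receptor for interferon gamma, fell by a log2 fold change of -3.39, and ITGB2, the common chain of the leukocyte integrins, by 1.01 on the log2 scale. Its partner in the complement receptor of phagocytes, ITGAM, went the other way and rose by 2.03 on the log2 scale, and FCGR3, an Fc receptor, rose by 4.75. FCGR2B, named after its values were seen, is an inhibitory Fc receptor and is 1 of the 8 that fell.

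Transcription factors known to act on oxidase genes went both ways. Of 13 tested, 5 rose, 4 fell and 4 were not called, beside 34.6% higher and 31.4% lower over all genes tested. The median of the list was -0.06 on the log2 scale. SPI1, which encodes PU.1 and drives myeloid genes including CYBB, fell from 174 ± 19.7 to 62.6 ± 4.75 CPM (SD, n = 3 each; log2 fold change -1.48, edgeR adjusted p = 1.52e-05), opposite in sign to CYBB. IRF1 and IRF8, interferon regulatory factors that act on CYBB with PU.1, rose by log2 fold changes of 2.86 and 2.13. ELF1, an ETS factor, rose by 1.51 and CEBPA by 2.29, while HOXA9 fell by 2.09 on the log2 scale.

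**Figure D4:**
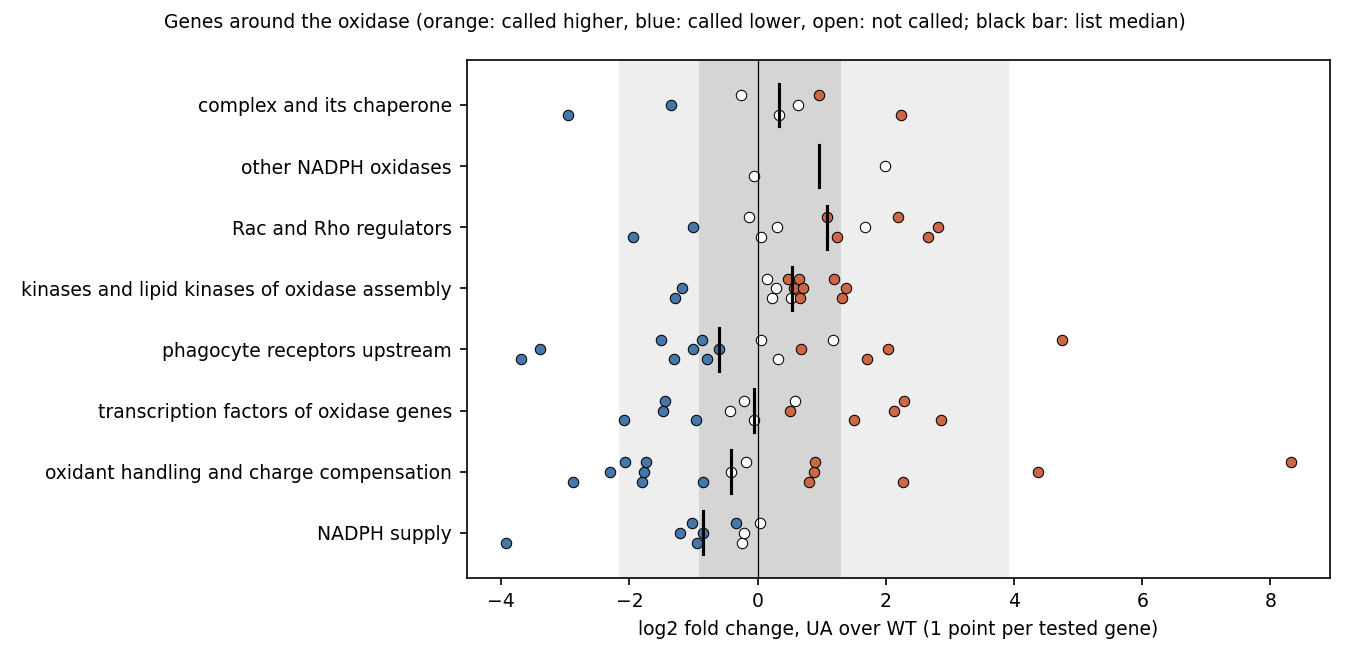
Log2 fold change of UA over WT for each tested gene of 8 lists around the oxidase, with list medians as black bars; grey bands hold the middle 50% and 90% of all genes tested. Genes of NADPH supply lie mostly below 0, with a median of -0.85, those of Rac regulation mostly above it, with a median of 1.08, and the complex itself lies on both sides.

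Enzymes of the pathways that supply NADPH, the electron donor of the oxidase, were lower in UA or not called. Of 9 tested, 6 fell, none rose and 3 were not called, beside 34.6% higher and 31.4% lower over all genes tested. The median of the list was -0.85 on the log2 scale. ME1, the cytosolic malic enzyme, fell from 23.1 ± 5.57 to 1.47 ± 0.229 CPM (SD, n = 3 each; log2 fold change -3.93, edgeR adjusted p = 2.43e-06). TALDO1, of the pentose phosphate pathway, fell by 1.03 on the log2 scale and IDH1, the cytosolic isocitrate dehydrogenase, by 1.21.

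Genes that use or remove the oxidase's products, or balance the charge it moves, went both ways. Of 15 tested, 6 rose, 7 fell and 2 were not called, beside 34.6% higher and 31.4% lower over all genes tested. The median of the list was -0.41 on the log2 scale. MPO and EPX, peroxidases of neutrophil and eosinophil granules that turn hydrogen peroxide into hypohalous acids, rose by log2 fold changes of 4.37 and 8.31, and CAT, catalase, by 2.27. The other 3 that rose, HVCN1, CLCN3 and CLCN7, are an ion channel and transporters that neither use nor remove oxidants, and were named after their values were seen. PRDX1 and PRDX5, peroxiredoxins, fell by log2 fold changes of -2.88 and -2.30, and SOD1, the cytosolic superoxide dismutase, of -1.74.

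Marker genes of myeloid cell types also differed between the groups, beside 34.6% called higher and 31.4% lower over all genes tested. Whether a marker list departed from these shares was not tested. All 5 tested markers of neutrophil primary granules rose, with a summed level of 1182 to 1295 CPM in WT and 24250 to 25104 in UA, and DEFA4, too low to test, had 0 counts in every WT library and 7, 2 and 1 in UA replicates 1 to 3. Markers of later neutrophils rose in 7 of 11 and fell in 2, at 215 to 262 CPM in WT and 404 to 416 in UA. Without CSF3R, the most abundant of them, these sums were 207 to 247 and 217 to 228 CPM and overlapped. That overlap holds opposite changes. MMP9, the largest part of it in WT, fell from 128 to 15.4 CPM, and LCN2 was the other that fell. LTF, CEACAM8 and FCGR3 rose from 0.206, 0.107 and 1.95 CPM to 19.7, 24.3 and 53.8. S100A12, too low to test, had 0 counts in every WT library and 5, 1 and 3 in UA. Monocyte and macrophage markers rose in 8 of 12, at 1754 to 2161 and 8371 to 8523 CPM. LYZ carried that sum, and without it the other markers summed to 1300 to 1626 CPM in WT and 857 to 875 in UA, the opposite direction. The 1 that fell was CD14, from 1147 to 21.7 CPM. It made up most of the WT sum without LYZ, so that opposite direction came from CD14. Eosinophil markers rose in 3 of 3, at 10.04 to 18.4 and 1313 to 1422 CPM, with IL5RA at 0 counts in every WT library. Of 7 dendritic and Langerhans markers 2 rose and 4 fell, with summed levels of 369 to 429 and 395 to 405 CPM that overlapped. Without FLT3 these sums were 310 to 390 CPM in WT and 128 to 140 in UA, and CD207 had 82.4 CPM in WT and 3 counts in all UA libraries together.

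Markers of cells that these colonies are not named for differed as well, again beside 34.6% higher and 31.4% lower over all genes tested. Of 10 stromal and endothelial markers 9 rose and 1 fell, at 144 to 147 CPM in WT and 1191 to 1221 in UA. DCN, the 1 that fell, carried the WT sum, with 113 CPM in WT and 21.6 in UA. PECAM1 had 26.8 and 189 CPM, and the rest had WT means of at most 1.70 CPM each. Megakaryocyte markers rose in 6 of 9 and fell in 1, at 431 to 479 and 858 to 875 CPM. TUBB1, the 1 that fell, carried the WT sum. Without it the megakaryocyte sums were 19.5 to 22.9 CPM in WT and 651 to 677 in UA. Lymphoid markers rose in 5 of 7 and fell in 2, at 158 to 176 and 328 to 365 CPM. CD3E, too low to test, had 0 counts in every WT library and 1, 5 and 1 in UA replicates 1 to 3. With a floor of 3 counts, 0 in a WT library still allows 0.137 to 0.287 CPM. The UA means of DEFA4, S100A12 and CD3E, 0.240, 0.270 and 0.228 CPM, lie within that range. The other markers too low to test, CCR3, CLEC9A, XCR1, ALAS2 and AHSP, overlapped between the groups. Mast cell and basophil markers rose in 3 of 5 and fell in 1, and of 4 erythroid markers 3 rose and 1 fell, at 196 to 236 and 258 to 264 CPM and at 14.6 to 24.2 and 23.0 to 29.8 CPM. The part of these cell types in the values of the oxidase genes was not tested.

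For each of the 5 genes, the genes of most similar course over the 6 libraries were sought among 6955 genes with a symbol and a mean of at least 20 CPM. Likeness was the root-mean-square difference of log2 CPM after centring each gene, and with 2 groups it mostly reads the group difference. For CYBB these were HBP1, EP300 and PRPF8, with differences of 0.04, 0.04 and 0.07. For CYBA they were TNRC6A, CDADC1 and AP5Z1 (0.09, 0.10 and 0.10), and for NCF1 LRRC75A, CCDC50 and GPATCH8 (0.11, 0.12 and 0.13). NCF4 was closest to GADD45GIP1, TNFSF10 and MRPL18 (0.12, 0.13 and 0.13), and RAC2 to URI1, CNPPD1 and SELENOT (0.03, 0.03 and 0.04). None of these 15 genes is a subunit of the oxidase. NCF1, at 6.16 CPM in WT and 9.60 in UA, was below the limit of 20 CPM and could not be named. The other subunits already differed in log2 fold change, so nothing about a shared course is read from this.

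**Figure D5:**
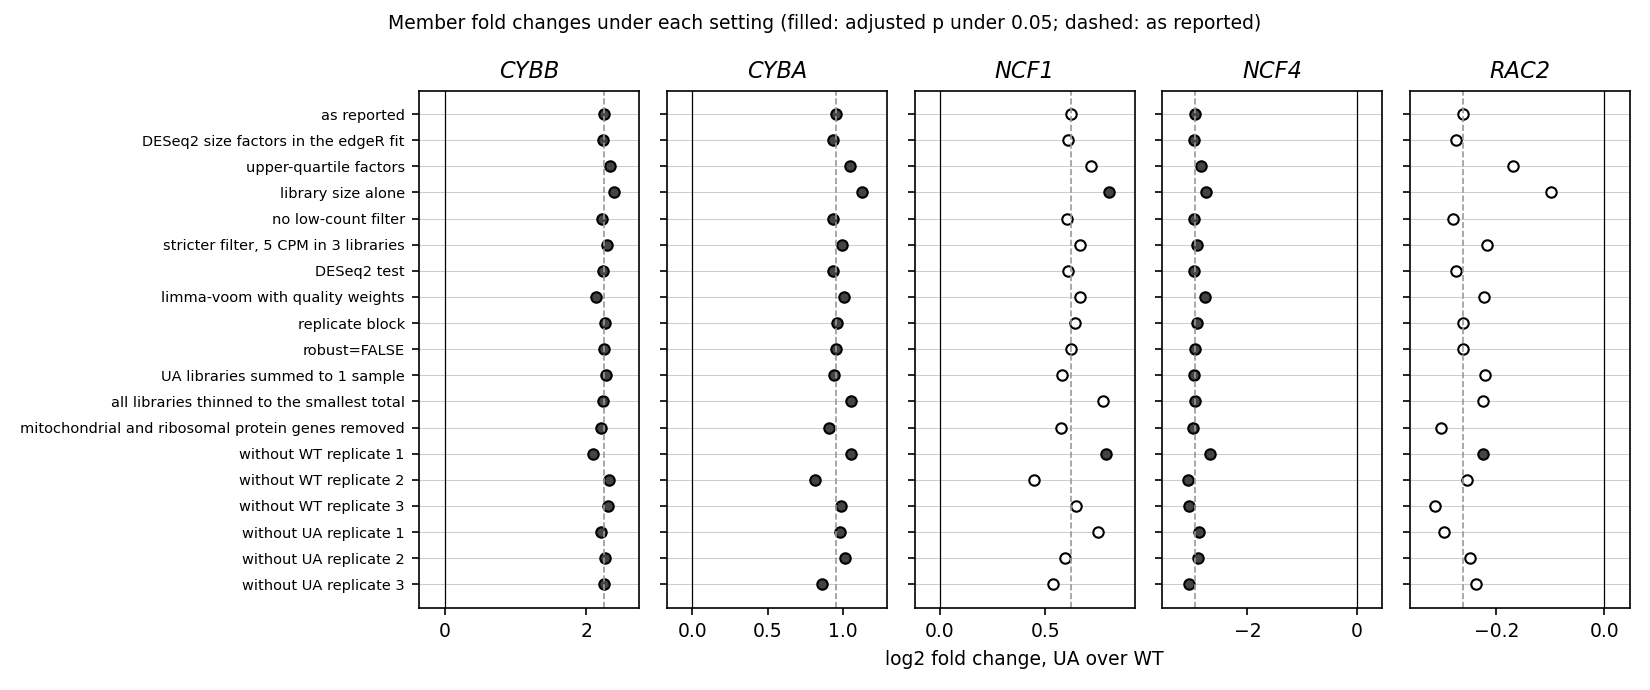
Log2 fold change of UA over WT for the 5 oxidase genes as reported and under 18 other settings; filled points have an adjusted p under 0.05. CYBB, CYBA and NCF4 are filled under each setting, while NCF1 is filled in 2 and RAC2 in 1.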

How the data were processed

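RNA of 6 single colonies was made into libraries with the SMART-Seq V4 and Nextera XT kits, per the labels' protocols. These kits mark neither strand nor molecule, so overlapping and antisense genes are not separated and PCR copies count as reads. The authors deposited raw counts per gene, 1 column per library, with no normalization. Their second deposited table holds a mean of normalized counts (a signal), log2 fold changes with standard errors, a test statistic (a score) and p-values, per the file headers. Not given in the sources used here are the libraries it compares, the aligner and the counter. Mmul_8.0.1 and bcl2fastq are named in the submitters' processing notes.

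Symbols came from row names, the authors' deposited table (9226 rows), a gene name table (7223) or the RefSeq protein that the deposited table cites (117 rows, RefSeq assembly T2T-MMU8v2.0, names only). The test was that of edgeR 4.0.16, under R 4.3.3 (quasi-likelihood, robust=TRUE, TMM, filterByExpr with a minimum count of 10 and a minimum total of 15) on the 6 libraries, with the group as sole term and Benjamini-Hochberg adjustment over 13768 genes. Standard errors are the log2 fold change over the square root of F. The members and lists were chosen with earlier results of these data known, and some genes are not reported here. Named genes were the members, the rest of the complex, list genes among the 6 of smallest p past the threshold, those needed for a count and the 3 nearest in course. The fit was tested on simulated data of 13768 genes, 100 changed by 1 and 100 by 2 on the log2 scale. It recovered 46% and 93% of them, and 12 of 151 calls were false. A change of 1 can thus go uncalled. Far fewer genes were changed there than were called in the data. Alternatives used DESeq2 1.42.0, limma 3.58.1 voom, other scalings and filters, a replicate block, summed or thinned libraries, and each library left out.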

Additional observations from a re-analysis of the deposited data

How the results depend on the processing

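CYBB, CYBA, NCF4 and RAC1 were called in the same direction under all 18 alternatives each, with log2 fold changes of 2.10 to 2.39, 0.81 to 1.12, -3.10 to -2.68 and -1.43 to -1.17. NCF1 was called with library size alone (0.80) and, among fits with 1 library left out (0.45 to 0.79), without WT replicate 1. RAC2 was called only without WT replicate 1, with -0.31 to -0.23 over the fits with 1 library left out. Its log2 fold change was -0.26 with both of its rows summed (edgeR adjusted p = 0.119), an alternative chosen after seeing the data. With the UA libraries summed, 2950 genes were called higher and 2410 lower; the fit has 1 sample in the UA group, which is assumed to vary like the WT libraries. Library size alone moved the median log2 fold change of all genes from 0.12 to 0.28, so relative to that median NCF1 changed little between the scalings. With the replicate block CYBB had 2.26, NCF4 -2.92, NCF1 0.64 and RAC2 -0.26 and no call changed among the 5 genes. Deviations of same-numbered libraries correlated by 0.01 to 0.02, so the numbers were not taken to pair the samples. The differences in subunit ratios kept their sign under all 7 alternatives of each of the 10 pairs. Depth limits NCF1 most, with 48 counts in its lowest library.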

Other observations

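The authors' deposited table lists other values for several of these genes. Its log2 fold changes are 4.10 for NCF4, 3.67 for CYBA, 4.56 for RAC1 and -1.21 for CYBC1. For RAC2 the authors' deposited table has 4.04 in the row with 11159 counts and -4.82 in the row with 7. For NCF4, RAC1, CYBC1 and the RAC2 row with 11159 counts the sign is opposite to that of UA over WT here, and for CYBA it is the same. The mean of normalized counts of NCF4 is 632 in the authors' deposited table and 4443 over these 6 libraries scaled by median ratios. Of 9874 genes tested here that the authors' deposited table lists, 35.5% have the same sign in both. Which libraries it compares, and in which direction, was not known here, so its fold changes were not used.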
